A study of Mus musculus with 26 samples.

Results

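The arginine and urea cycle enzymes are 7 genes that make and break down citrulline and arginine: Nags, Cps1, Otc, Ass1, Asl, Arg1 and Arg2. They were chosen by name, and all 7 were found among the 25146 genes with complete values in a table of 26 mouse 3′ RNA-seq libraries. The libraries form 13 sorted groups of 2. Intestine, retina and spleen cells came from C57BL/6 mice with EGFP knocked in at both copies of BLIMP1, the transcriptional repressor encoded by Prdm1, so every group from these tissues, splenic controls included, carries the reporter allele. The intestinal groups were EPCAM+ epithelium taken between the caudal part of the duodenum and the ileocecal junction. At embryonic day E16.5 it was sorted as reporter-positive, and at postnatal days P3 and P14 as reporter-negative, so age and gate change together and cannot be told apart. The study's design text calls the P3 and P14 groups embryonic, and the sample titles, which do not, were followed. The retinal groups were P0 GFP+, P4 GFP+CD73-, P4 CD73+, P6 CD73+ and P10 CD73+ photoreceptor precursors. The B lineage comprised B220+ B cells of mice aged 8 to 10 weeks and cells cultured for 3 days, with IL-4 at 2 ng/mL and LPS at 10 ng/mL: GFP-CD138- blasts (Blast), GFP+CD138- pre-plasmablasts (prePB) and GFP+CD138+ plasmablasts (PB). The remaining group, d2 PGCLC, held primordial germ cell-like cells on day 2 of induction with BMP4, BMP8A, SCF, LIF and EGF. They came from a C57BL/6 and 129 line with Blimp1-mVenus, stella-ECFP and Rosa26-rtTA, and were sorted as Blimp1-mVenus-positive (BV+).

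In the urea cycle, mitochondrial carbamoyl phosphate synthetase (Cps1), switched on by the N-acetylglutamate that Nags makes, and ornithine transcarbamylase (Otc) build citrulline. Cytosolic argininosuccinate synthetase (Ass1) and argininosuccinate lyase (Asl) turn citrulline into arginine, and arginase, cytosolic (Arg1) or mitochondrial (Arg2), splits arginine into ornithine and urea. The liver holds the whole cycle. The small intestine is known as a site of citrulline synthesis that also completes arginine in the perinatal and suckling period, whereas the older gut releases citrulline for arginine synthesis in the kidney and gains arginase around weaning.

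By RefSeq (GRCm38.p6), Nags (Entrez 217214) lies at chr11:102145513-102149528, Cps1 (227231) at chr1:67122426-67231267 and Otc (18416) at chrX:10252230-10321024. Ass1 (11898) lies at chr2:31470270-31520670 and Asl (109900) at chr5:130011258-130024381. Arg1 (11846) lies at chr10:24915207-24927470 and Arg2 (11847) at chr12:79130788-79156301. Each entry spans the whole gene, exons and introns. RefSeq promoter sequences were at hand for 3 of the 7, and they set a pair of genes read almost solely in intestine (Otc and Nags) beside Ass1, which was read in every library. Each line gives the 250 bases before the start that the RefSeq promoter table uses, on the plus strand of GRCm38.p6, at chr2:31470020-31470269 for Ass1, chrX:10252055-10252304 for Otc and chr11:102145263-102145512 for Nags. For Ass1 and Nags that start is the first base of the gene entry. For Otc it is base 10252305, inside the entry, so the last 75 bases of the Otc window overlap the gene span given above. Capitals mark matches to the motifs described in the next paragraph.
Ass1: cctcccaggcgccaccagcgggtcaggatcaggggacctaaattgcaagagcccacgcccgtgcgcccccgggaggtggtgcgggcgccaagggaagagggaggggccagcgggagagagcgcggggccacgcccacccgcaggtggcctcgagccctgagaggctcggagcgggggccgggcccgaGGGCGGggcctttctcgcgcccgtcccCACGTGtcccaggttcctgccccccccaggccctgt
Otc: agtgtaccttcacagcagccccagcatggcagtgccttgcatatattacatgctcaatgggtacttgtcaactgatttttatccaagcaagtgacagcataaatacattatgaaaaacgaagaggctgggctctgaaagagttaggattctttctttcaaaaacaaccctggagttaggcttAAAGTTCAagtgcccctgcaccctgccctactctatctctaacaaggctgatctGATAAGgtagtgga
Nags: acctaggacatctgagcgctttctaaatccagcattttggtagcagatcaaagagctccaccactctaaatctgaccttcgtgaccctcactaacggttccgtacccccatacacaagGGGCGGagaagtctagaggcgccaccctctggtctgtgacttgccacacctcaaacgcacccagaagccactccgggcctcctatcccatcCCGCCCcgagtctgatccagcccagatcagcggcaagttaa

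These windows were searched on both strands for 6 motifs, and no matches overlapped. The GC box GGGCGG, held by 32.74% of 32851 promoter windows of this length, matched in Ass1 (63 to 58 bases before the start) and at 2 sites in Nags (132 to 127, and 41 to 36 on the minus strand). The E-box CACGTG, held by 6.021% of windows, matched in Ass1 at 36 to 31 bases before the start. Otc matched the HNF4-type motif AAAGTNCA (3.528% of windows) at 68 to 61 bases and the GATA motif GATAAG (6.548%) at 14 to 9 bases before the start in the table. Both Otc matches lie in the 75 bases that overlap the annotated gene, so neither is upstream of the RefSeq entry. The CDX-type motif TTTATNG (9.811% of windows) and the BLIMP1-type motif GAAAGTG (4.009%) had no match in these 3 windows. G and C made up 75.6% of the Ass1 window, 43.6% of the Otc window and 55.6% of the Nags window, against a median of 52.4% over all windows.

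Values are RPM as deposited, the reads of a gene scaled by the size of its library. The libraries held 1.72 to 6.04 M reads (M, 1e6), so that 1 read is worth 0.166 to 0.583 RPM, and a value of 0 allows up to 3 reads, or 0.497 to 1.75 RPM by library, for counting error only. Markers matched the labelled tissues: 9 intestinal epithelial genes summed to 7695 to 10787 RPM in intestine, and 8 photoreceptor genes to 3009.8 to 25016 RPM in retina, where P0 was lowest and P10 highest. B cell genes summed to 1934 to 10128 RPM in the B lineage, and germ cell genes to 735 to 765 RPM in PGCLC, with all 6 above 5 RPM. The labels do not say whether the 2 libraries of a group are separate animals or cultures, and all p-values therefore reflect library-to-library spread, which may be technical. In bulk RNA, fewer cells of a type and less RNA per cell cannot be told apart.

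In the epithelium of the gut the genes of the citrulline-forming enzymes were read in all libraries at all 3 ages. The arginine-forming enzymes, Ass1 above all, were high at E16.5 and lower at P3 and P14, and the mitochondrial arginase gene Arg2 was under 1 RPM until P14. Of the 6 genes tested at P3 against E16.5, 3 were lower and none higher (Arg1 stayed below the filter of 5 RPM in 2 libraries). The 3 were Ass1, Asl and, on the citrulline side, Nags. Otc (log2 change -0.77) and Cps1 (0.86) moved in opposite directions and were not called. Calls required a log2 change of at least 1 in either direction beside an adjusted p below 0.05. By that rule 20.8% of all 10481 genes tested were called in this comparison, 12.6% higher and 8.2% lower, and the median log2 change was -0.89 for the 6 genes against 0.11 for all genes. At P14 against P3, 1 of 6 was called, where 4.4% of all genes were, and the medians were 0.33 and -0.08. That gene, Arg2, was tested only because its P14 values passed the filter, so its calls here are a description. At P14 against E16.5, 2 were lower and 1, again Arg2, higher, where 22.3% of all genes were called, 10.4% lower and 11.8% higher, and the medians were -0.56 and 0.02. These comparisons share libraries, and 2 against 2 samples cannot reach an exact permutation p below 0.333, so all tests rest on limma, which pools the spread over genes.

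**Figure D1:**
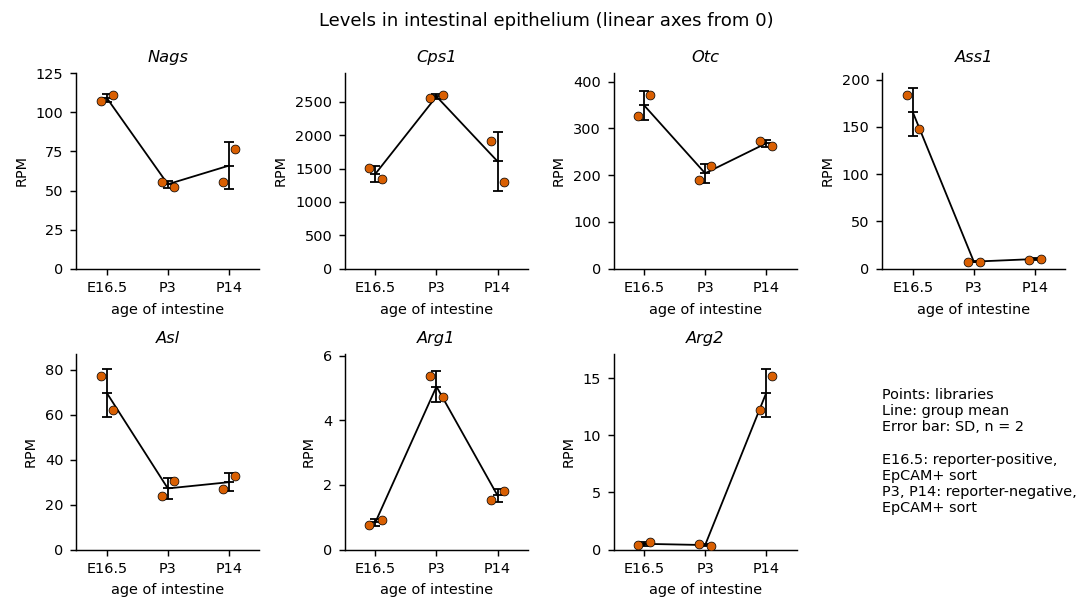
RPM of each gene in the intestinal groups on linear axes from 0, with 1 point per library, lines through group means and SD bars (n = 2). Ass1 stood at 184 and 148 RPM at E16.5 and between 7.40 and 10.8 RPM in the 4 later libraries, and Arg2 stood at 12.2 and 15.2 RPM at P14 and under 1 RPM before.

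Ass1, which condenses citrulline with aspartate, had the largest change of the 6 genes tested. It measured 184 and 148 RPM at E16.5, 7.62 and 7.40 RPM at P3, and 9.76 and 10.8 RPM at P14. Every E16.5 library lay far above every later one, and P3 and P14 differed little. On the log2(RPM + 1) scale Ass1 fell by 4.28 from E16.5 to P3 (SE 0.25, limma adjusted p = 3.4e-12), a 19.5-fold difference, and was lower by 14.7-fold at P14 than at E16.5 (log2 change -3.88 ± 0.25 SE, limma adjusted p = 1.7e-11). From P3 to P14 the log2 difference was 0.40 ± 0.25 (limma adjusted p = 0.40), which was not called.

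Asl, the lyase that releases arginine and fumarate, went the same way by a smaller step. It measured 77.3 and 62.1 RPM at E16.5, 23.8 and 30.6 RPM at P3, and 27.2 and 32.8 RPM at P14. The E16.5 libraries stood above the other 4, and the P3 and P14 ranges overlapped. Asl fell by 1.33 on the log2 scale from E16.5 to P3 (SE 0.23, limma adjusted p = 6.2e-05) and was lower by 1.19 at P14 than at E16.5 (log2 change -1.19, SE 0.23, limma adjusted p = 1.9e-04). The difference between P14 and P3 was 0.14 on the log2 scale (limma adjusted p = 0.80). The ratio of Ass1 to Asl reads within a library was 2.38 in both E16.5 libraries, 0.321 and 0.242 at P3, and 0.360 and 0.328 at P14. That ratio depends on the genes' 3′ ends as well as their levels, and only its change between groups is described: its ranges at E16.5 and later did not overlap.

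Cps1, which makes carbamoyl phosphate from ammonia, was highest at P3. It measured 1504 and 1340.3 RPM at E16.5, 2559 and 2603 RPM at P3, and 1918 and 1299.7 RPM at P14. The P3 libraries lay above all others, while the E16.5 and P14 ranges overlapped and the P14 pair was the most spread. The log2 difference between P3 and E16.5 was 0.86 ± 0.15 (limma adjusted p = 1.0e-04) and that between P14 and P3 was -0.71 ± 0.15 (limma adjusted p = 0.0037). Both stayed under the minimum fold and were not called.

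Otc, the next enzyme, had its lowest values where Cps1 had its highest. It measured 327 and 372 RPM at E16.5, 190 and 219 RPM at P3, and 274 and 263 RPM at P14, and the 3 ranges did not overlap. The log2 differences were -0.77 ± 0.15 for P3 against E16.5 (limma adjusted p = 1.8e-04) and 0.40 ± 0.15 for P14 against P3 (limma adjusted p = 0.10), and neither was called. The ratio of Cps1 to Otc reads was 4.59 and 3.61 at E16.5, 13.5 and 11.9 at P3, and 7.0 and 4.95 at P14. The P3 libraries therefore held the most Cps1 per Otc read.

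Nags, whose product is the obligate activator of CPS1, measured 107 and 111 RPM at E16.5, 55.6 and 52.5 RPM at P3, and 55.2 and 76.7 RPM at P14. The E16.5 libraries were above the rest, and P3 and P14 overlapped. Nags fell by 1.00 on the log2 scale from E16.5 to P3 (SE 0.19, limma adjusted p = 2.0e-04), which just met the minimum fold. It was not called with log2(RPM + 5) (-0.95), with quantile normalization (-0.96), without E16.5 replicate 2 (-0.98) or without P3 replicate 2 (-0.96). At P14 against E16.5 the difference was -0.74 ± 0.19 (limma adjusted p = 0.0032) and at P14 against P3 0.26 ± 0.19 (limma adjusted p = 0.47), neither of them called. The Otc to Ass1 ratio, a measure of citrulline-forming against citrulline-using transcripts within a library, was 1.78 and 2.52 at E16.5, 24.9 and 29.5 at P3, and 28.1 and 24.4 at P14.

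The arginase genes had their highest intestinal values at different ages, Arg1 at P3 and Arg2 at P14. Arg2 measured 0.385 and 0.618 RPM at E16.5, 0.448 and 0.337 RPM at P3, and 12.2 and 15.2 RPM at P14. The P14 libraries stood apart, and the E16.5 and P3 values, of a few reads each, overlapped. On the log2(RPM + 1) scale Arg2 was 3.40 ± 0.52 (SE) higher at P14 than at P3 and 3.29 ± 0.52 higher than at E16.5. Because the earlier values are near 0, the size depends on the added 1 RPM. Arg2 passed the filter through its P14 values alone and had to differ to be tested, so no p is given for it. With no filter on low values limma called both differences, and without either P14 replicate, or with a filter of 20 RPM, Arg2 was not tested. Arg1 measured 0.769 and 0.926 RPM at E16.5, 5.38 and 4.71 RPM at P3, and 1.53 and 1.82 RPM at P14. The P3 pair was above the other 4 libraries, at 14 reads or fewer per library, and Arg1 was not tested within intestine.

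**Figure D2:**
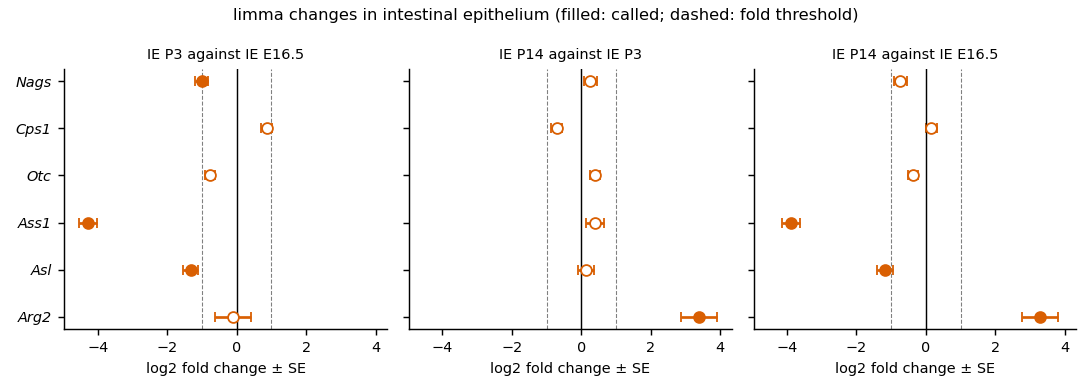
limma log2 fold changes with SE bars for the 6 genes tested in intestine, in 3 panels for P3 against E16.5, P14 against P3 and P14 against E16.5; filled points were called and dashed lines mark the minimum fold. Ass1 lies at -4.28 and -3.88 in the panels against E16.5, and Arg2 at 3.40 and 3.29 in those of P14.

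The members' ages were set beside enterocyte lists that are known to separate the suckling from the adult type. Of 12 suckling-type genes, all tested, 8 fell and none rose from E16.5 to P3, with a median log2 change of -2.37 against 0.11 over all genes. In that comparison 8.2% of all genes were called lower and 12.6% higher. The 8 included the uptake receptor Cubn (-4.91), the lysosomal sialidase Neu1 (-3.01), the endocytic receptor Lrp2 (-2.85), lactase, Lct (-2.79), the dipeptidase Cndp2 (-2.69) and the endocytic adaptor Dab2 (-2.52). From P3 to P14, where 4.4% of all genes were called, another 3 fell, Prdm1 (-1.55), Nox4 (-1.40) and the IgG receptor Fcgrt (-1.13). Ass1, Asl and Nags thus had their highest libraries at the age where the suckling-type genes had theirs. Lct, for example, measured 654 and 723 RPM at E16.5 and 105 and 92.2 RPM at P3.

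Of 10 adult-type genes, all tested, 2 rose and 3 fell from E16.5 to P3, where 12.6% of all genes were called higher and 8.2% lower. Sucrase-isomaltase, Sis, rose by 4.21 and trehalase, Treh, by 1.93 on the log2 scale, whereas the sugar carriers Slc2a2 (-1.88) and Slc5a1 (-1.04) were among those that fell. Sis measured 1.15 and 0.309 RPM at E16.5, 24.7 and 36.3 RPM at P3, and 31.7 and 61.8 RPM at P14. Arg2, unlike Sis, was still under 1 RPM at P3. From P3 to P14, where 4.4% of all genes were called, no adult-type gene rose and 2 fell, Slc2a2 (-1.14) and Anpep (-1.08).

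**Figure D3:**
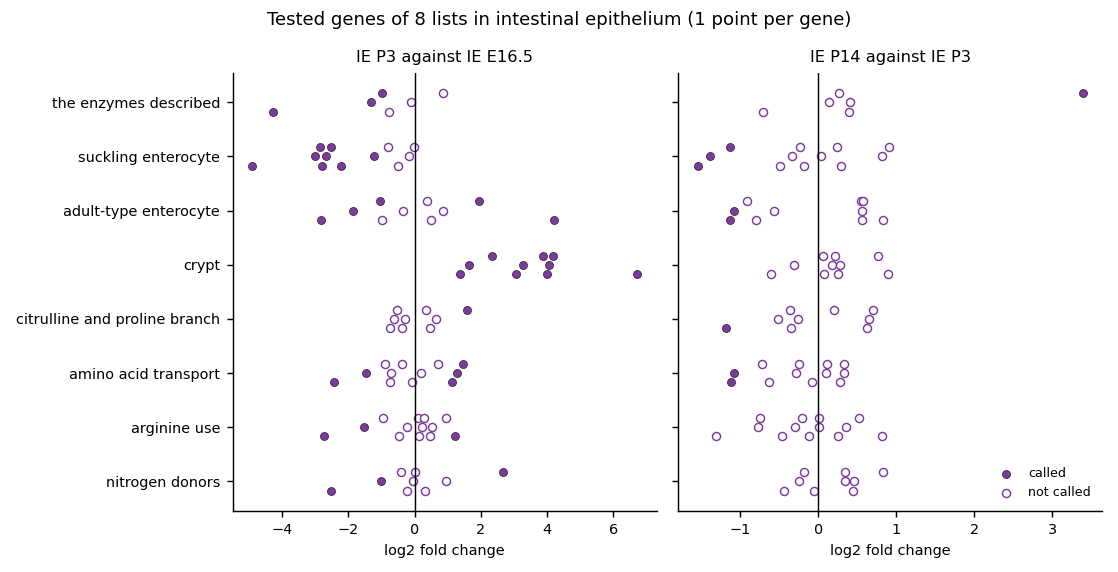
limma log2 fold changes of the tested genes in 8 lists, 1 point per gene, for P3 against E16.5 (left) and P14 against P3 (right); filled points were called. The crypt list lies wholly to the right at P3 against E16.5, 8 suckling-type genes are filled on the left there, and Arg2 is the filled point at 3.40 on the right-hand panel.

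Other cell types moved with age and gate in the same libraries. All 10 crypt genes rose from E16.5 to P3 (median log2 change 3.56), where 12.6% of all genes were called higher. The 10 included Olfm4 (6.72), Lgr5 (4.19), Ascl2 (4.05), Slc12a2 (4.0), Smoc2 (3.86) and Sox9 (3.26). None was called by limma between P3 and P14 (median 0.19), where only 4.4% of all genes were. Unadjusted p was under 0.05 for 3 of the 10. Of these, Smoc2 (0.77, limma adjusted p = 0.024) missed only the minimum fold. Enteroendocrine genes, all 8 found, summed to 66.7 to 95.8 RPM at E16.5, 5297 to 7639 RPM at P3 and 1855 to 3418 RPM at P14. The 6 goblet cell genes summed to 426 to 448, 2668 to 2854 and 3870 to 4884 RPM, and the 6 Paneth cell genes to 48.7 to 58.9, 1693 to 2088 and 2898 to 4030 RPM at these ages. The 9 epithelial genes summed to 10618 to 10787, 8669 to 8838 and 7695 to 7713 RPM. The part of these shifts in the changes of Ass1, Asl, Nags and Arg2 was not tested. Prdm1, whose reporter set the gate, measured 93.5 and 107 RPM at E16.5, 46.2 and 71.3 RPM at P3 and 21.4 and 16.9 RPM at P14, so its RNA was read in the reporter-negative groups too.

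Liver holds the whole cycle, so a hepatocyte list was read in the same libraries. Alb, Ahsg and Tat were at 0 in both E16.5 libraries and at most 1.22 RPM (Alb in P14 replicate 1) in the others. The list's sum, 751 to 1080 RPM over the 6 intestinal libraries, was mostly Hnf4a, a factor that enterocytes also use (554 to 807 RPM), and Afp, which measured 190 and 352 RPM at E16.5, 15.7 and 23.6 RPM at P3 and 14.6 and 60.1 RPM at P14. The hepatocyte list was thus mixed at E16.5. Of its 10 genes 3 (Alb, Ahsg and Tat) were at 0 in both libraries. A mean of at least 5 RPM was held by 6, Hnf4a and Afp among them, against 4 at P3 and 4 at P14. Afp was highest at E16.5, as Ass1, Asl and Nags were. The part of such cells in the levels of the members was not tested.

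The steps upstream of citrulline changed less than Ass1. Of 13 genes that feed glutamine, glutamate and proline into ornithine, 9 were tested. From E16.5, 1 was called at P3 and 1 at P14, in both cases Gls2, a glutaminase gene, which was higher at P3 (1.59) and P14 (2.28). In these comparisons 20.8% and 22.3% of all genes were called. Oat, ornithine aminotransferase, measured 2684 and 2888 RPM at E16.5, 3444 and 3683 RPM at P3 and 2627 and 2337 RPM at P14. Aldh18a1, which makes the pyrroline-5-carboxylate that Oat uses, measured 651 and 647, 526 and 531, and 433 and 449.8 RPM. Neither was called, and the list's median log2 change from E16.5 to P3 was -0.30.

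Of 15 amino acid transporters, 12 were tested. From E16.5 to P3, 3 rose and 2 fell, where 12.6% of all genes were called higher and 8.2% lower. From P3 to P14 none rose and 2 fell, where 4.4% of all genes were called. At P14 against E16.5, 2 were higher and 5 lower, where 11.8% of all genes were called higher and 10.4% lower. Slc3a1 and Slc7a9, the subunits of the apical carrier of cystine and dibasic amino acids, arginine among them, fell by 2.43 and 1.47 from E16.5 to P3. Slc7a7, which carries dibasic amino acids out at the basolateral side, was lower by 1.08 at P14 than at P3 (log2 change -1.08) and stood at -1.99 at P14 against E16.5. The glutamine and neutral amino acid carrier Slc1a5 rose by 1.46 and the arginine carrier Slc7a6 by 1.27 from E16.5 to P3. Slc6a19, an apical carrier of neutral amino acids, stood at -1.13 at P14 against P3. The list's median from E16.5 to P3 was -0.23, against 0.11 over all genes.

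Of 19 genes that use arginine or make and break down polyamines and creatine, 17 were found and 13 tested. From E16.5 to P3 Gatm, which starts creatine synthesis from arginine, rose by 1.23, while Gamt, which completes it, stood at -1.54 and Ddah1, which clears methylarginines, at -2.73. In that comparison 12.6% of all genes were called higher and 8.2% lower. No gene of the list was called between P3 and P14 by limma, where only 4.4% of all genes were. Unadjusted p was under 0.05 for 5 of the list. Of these, Sat1 (-0.75), Agmat (-0.77) and Ddah1 (0.82) also had a limma adjusted p under 0.05 and missed only the minimum fold. The list's median log2 change was 0.13 from E16.5 to P3. Nos2, the inducible nitric oxide synthase gene, was at most 0.915 RPM in intestine. Of 13 genes that supply nitrogen, 9 were tested. Glutamine synthetase, Glul, rose by 2.68 from E16.5 to P3, and the aspartate aminotransferases Got1, cytosolic, and Got2, mitochondrial, which form the aspartate that Ass1 consumes, stood at -2.53 and -1.02. Got1 measured 81.9 and 125 RPM at E16.5 and 13.9 and 19.9 RPM at P3. Cad, the cytosolic carbamoyl phosphate synthetase of pyrimidine synthesis, was 1.29 higher at P14 than at E16.5. Of all genes, 11.8% were called higher in that comparison.

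Outside the intestine the 3 citrulline-forming genes were at or near 0. Cps1 was at most 1.20 RPM (5 reads) in the 20 other libraries and at 0 in 6 of them. Otc was at most 0.932 RPM (4 reads) and at 0 in 11 of 20, and Nags was at 0 in 19 of 20, with 3 reads (0.723 RPM) in B cell replicate 2. The lowest intestinal value exceeded the highest retinal value 1228-fold for Cps1 and 204-fold for Otc. Over the highest B-lineage value it was 1079-fold higher for Cps1 and 334-fold for Otc. In PGCLC all 3 genes were listed at 0, and Nags was listed at 0 in all 10 retinal libraries.

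**Figure D4:**
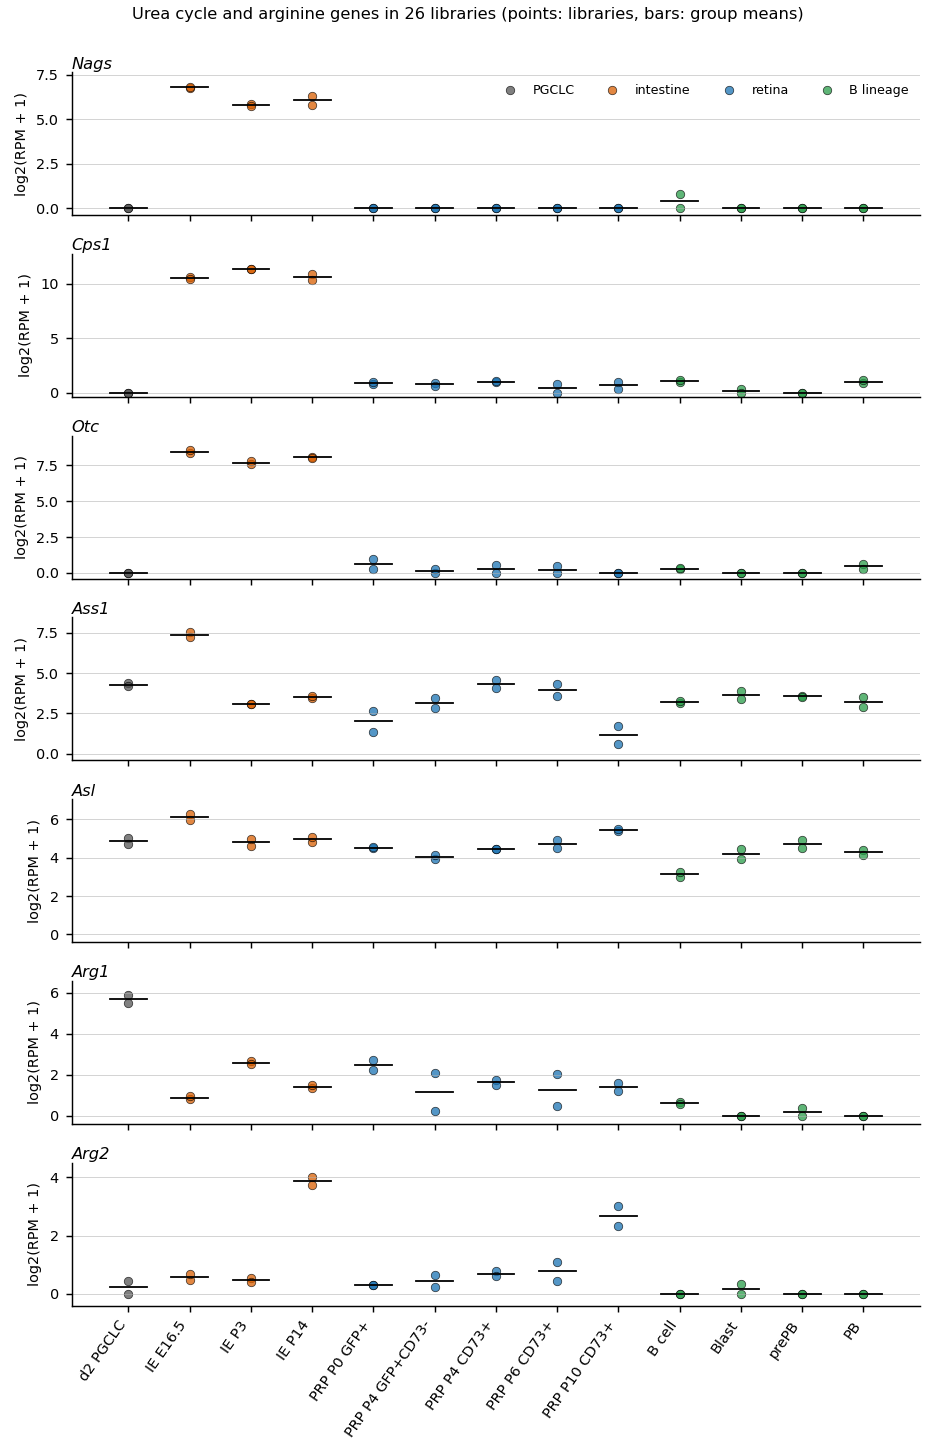
log2(RPM + 1) of each gene in all 26 libraries by group, coloured by lineage, with bars at group means. Nags, Cps1 and Otc stand above 5 on this scale only in the 6 intestinal libraries, Ass1 and Asl are above 0 in all 26, Arg1 is highest in d2 PGCLC, and Arg2 is highest in P14 intestine and then P10 retina.

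In a fit of all 26 libraries over 14131 genes, lineages were compared by the mean of their groups. Against retina, 4 of the 7 were higher in intestine and none lower, where 56.8% of all genes were called, 19.4% higher and 37.4% lower. The log2 differences were 10.07 for Cps1, 7.81 for Otc, 6.20 for Nags and 1.72 for Ass1 (limma adjusted p = 6.3e-08 for Ass1). Cps1, Otc and Nags passed the filter through intestinal libraries alone and had to differ from the other lineages, so their differences and the counts that hold them are descriptions. They are set against values near 0 and depend on the added 1 RPM. With no filter on low values limma called these 4 genes as well. Without the E16.5 group, Ass1 differed by 0.36 and was not called, so its intestinal excess over retina rests on E16.5. The genes that feed ornithine to Otc were also higher in intestine, 6 of 11 tested against 2 lower, led by Oat (5.41), the mitochondrial ornithine carrier Slc25a15 (4.72) and Aldh18a1 (3.47).

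Against the B lineage all 7 were higher in intestine, where 38.2% of all genes were called, 26.4% higher and 11.8% lower. Cps1, Otc and Nags differed by 10.25, 7.88 and 6.11 on the log2 scale, and Arg2 by 1.60. Arg1 differed by 1.43, Ass1 by 1.25 and Asl by 1.21 (largest limma adjusted p of these 3, 1.9e-05). Within these lineages only P3 replicate 1 exceeded 5 RPM in Arg1, so it passed the filter through libraries of other lineages. With intestine and B lineage alone Arg1 was not tested. The Arg2 difference rests on P14, the age through which it passed the filter: without the P14 group it was fitted only with no filter on low values, stood at 0.49 and was not called. The median log2 difference was 1.60 for the 7 genes and 0.21 for all genes. Without the E16.5 group Ass1 stood at -0.11 and Asl at 0.79, and without the P3 group Arg1 stood at 0.95. None of these was then called. Asl was also not called with median-of-ratios scaling (0.96) or quantile normalization (0.75), nor Ass1 with quantile normalization (0.57), nor Arg1 (0.50) and Arg2 (0.71) with log2(RPM + 5).

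Against PGCLC 4 of 7 were higher and 1 lower in intestine, where 42.9% of all genes were called, 20% higher and 22.9% lower. Cps1, Otc, Nags and Arg2 were higher by 10.81, 8.07, 6.20 and 1.42, and Arg1 was lower (log2 difference -4.07, SE 0.37). Arg2 was not called with log2(RPM + 5) (0.66), nor, with no filter on low values, without the P14 group (0.30). Ass1 differed by 0.37 with all intestinal groups and by -0.99 without E16.5, and was called in neither case.

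PGCLC were the group with the highest Arg1. Arg1 measured 44.9 and 57.8 RPM there (77 and 156 reads), and the highest value elsewhere was 5.59 RPM in P0 retina. The ranges did not overlap. Arg1 was lower than in PGCLC in retina (log2 difference -4.12 ± 0.35, limma adjusted p = 3.5e-10) and in the B lineage (-5.49 ± 0.35, limma adjusted p = 4.0e-12). In these comparisons 50.6% and 43.5% of all genes were called, and 2 and 1 of the 7 genes. Arg1 is also a gene of myeloid cells, so 10 myeloid genes were read in PGCLC: they summed to 4.66 to 5.19 RPM, most of it Cd68, and 6 were at 0 in both libraries, Csf1r, Lyz2 and Emr1 among them. Of 10 hepatocyte genes 9 were at 0 in both PGCLC libraries. The part of such cells in the Arg1 level was not tested. Ass1 was lower in retina than in PGCLC (-1.35 ± 0.31, limma adjusted p = 5.2e-04), and this was not called with log2(RPM + 5) (-0.88). Ass1 measured 19.8 and 17.1 RPM and Asl 31.5 and 25.2 RPM in PGCLC.

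In retina Ass1 and Asl passed the filter and the other 5 did not. Ass1 measured 1.58 and 5.36 RPM in P0 GFP+, 6.25 and 10.1 RPM in P4 GFP+CD73- and 15.9 and 22.7 RPM in P4 CD73+ cells. In CD73+ cells of P6 it measured 11 and 19.3 RPM, and in those of P10 it measured 0.519 and 2.36 RPM. The P4 CD73+ and P6 libraries were the highest, and P0 and P10 overlapped at the low end. Ass1 fell by 2.79 on the log2 scale from P6 to P10 (SE 0.50, limma adjusted p = 9.3e-04), a 6.92-fold difference, the 1 call of 2 genes tested in a comparison where 11% of all 11704 genes were called. It was not tested with a filter of 20 RPM.

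At P4 the CD73+ cells were 1.16 ± 0.50 higher in Ass1 than the GFP+CD73- cells (limma adjusted p = 0.17), and GFP+CD73- cells of P4 were 1.15 ± 0.50 higher than P0 cells (limma adjusted p = 0.11). Neither was called, though each had an unadjusted p under 0.05 and ranges that did not overlap. In those comparisons 5.86% and 11% of all genes were called, and in P6 against P4 CD73+, where limma called neither gene and neither had an unadjusted p under 0.05, 2.7% were.

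Asl measured 21.5 and 22.4 RPM at P0, 14.5 and 16.7 RPM in P4 GFP+CD73- and 20.5 and 20.9 RPM in P4 CD73+ cells. It measured 28.9 and 21.3 RPM at P6 and 41.6 and 44.4 RPM at P10, so the P10 libraries were above the other 8. The log2 difference of P10 from P6 was 0.77 ± 0.24 (limma adjusted p = 0.031) and from P0 0.94 ± 0.24 (limma adjusted p = 0.0031), both short of the minimum fold. In P10 against P0, 35.9% of all genes were called. Ass1 and Asl thus stood on opposite sides at P10: the P10 libraries held the lowest Ass1 value and the highest 2 Asl values of the retina.

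Arg2 also stood out at P10. It measured 7.01 and 4.04 RPM (27 and 12 reads) at P10, against at most 1.16 RPM (3 reads) in the other 8 retinal libraries, and the ranges did not overlap. Only 1 library exceeded 5 RPM, so Arg2 was under the filter. With no filter limma called it against both P6 and P0. Arg1 measured 3.62 and 5.59 RPM at P0 and between 0.187 and 3.22 RPM in the other retinal libraries. Arg1 was 1.38 ± 0.21 higher in retina than in the B lineage (limma adjusted p = 2.6e-06), where 58.8% of all genes were called. It was not called with log2(RPM + 5) (0.48) or quantile normalization (0.83). Within these lineages only P0 replicate 2 exceeded 5 RPM, so Arg1 passed the filter through libraries of other lineages. With the libraries of retina and B lineage alone it was not tested.

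**Figure D5:**
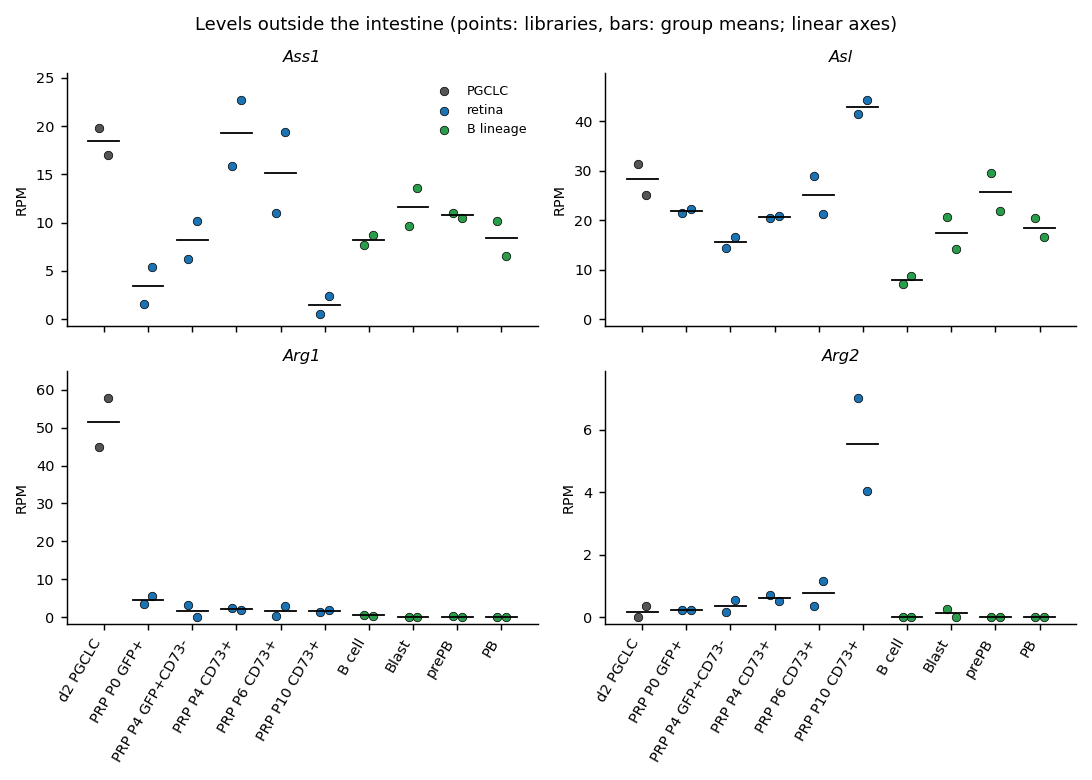
RPM of Ass1, Asl, Arg1 and Arg2 in the 20 libraries outside the intestine, on linear axes, with bars at group means. In retina Ass1 is highest in P4 CD73+ (15.9 and 22.7 RPM) and low at P10 (0.519 and 2.36 RPM), where Asl (41.6 and 44.4 RPM) and Arg2 (7.01 and 4.04 RPM) are highest.

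The retinal samples also changed in their markers between P6 and P10. Photoreceptor genes summed to 8832 to 9964 RPM at P6 and 22995 to 25016 RPM at P10. Glial and progenitor genes summed to 1170 to 1181 RPM at P6 and 677 to 813 RPM at P10, with 6 and 5 of the 6 above 5 RPM. Endothelial genes summed to 62.6 to 72.9 RPM and 26.6 to 29.6 RPM, most of it Kdr (60.4 and 69.3 RPM, then 19.7 and 15.5 RPM). The part of these cells in the changes of Ass1, Asl and Arg2 was not tested. Among the genes feeding ornithine, Oat rose by 1.02 on the log2 scale from P6 to P10. Oat measured 73.6 and 81.7 RPM at P6 and 156 and 160 RPM at P10.

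In the B lineage Ass1 and Asl were again the 2 genes tested. Asl measured 7.08 and 8.70 RPM in B cells, 20.6 and 14.2 RPM in blasts, 29.6 and 21.9 RPM in prePB and 20.4 and 16.6 RPM in PB. Both B cell libraries were below the 6 libraries of stimulated cells, which overlapped in part. Asl was 1.03 ± 0.30 higher in blasts than in B cells (limma adjusted p = 0.010), where 34.1% of all genes were called, and 1.13 ± 0.30 higher in PB than in B cells (limma adjusted p = 0.0041), where 47.7% were. Both lay near the minimum fold on the deposited scale. With median-of-ratios scaling and quantile normalization they were 1.15 and 1.38 for blasts and 1.87 and 2.07 for PB, all called, so the PB difference depends on the scaling. The blast call was lost with log2(RPM + 5) (0.78), without B cell replicate 1 (0.90) or without Blast replicate 1 (0.78), and the PB call with log2(RPM + 5) (0.87) or without PB replicate 1 (0.99).

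Ass1 measured 7.68 and 8.67 RPM in B cells, 9.65 and 13.6 RPM in blasts, 11 and 10.5 RPM in prePB and 10.2 and 6.56 RPM in PB. Its log2 difference from B cells was 0.44 ± 0.34 in blasts and 0.01 ± 0.34 in PB, and it was called in no comparison. With median-of-ratios scaling and quantile normalization the differences were 0.56 and 0.81 in blasts and 0.72 and 0.95 in PB, none of them called, so the PB difference too depends on the scaling. In prePB against Blast, PB against prePB and PB against Blast, where 10.3%, 13% and 37.6% of all genes were called, limma called neither gene, and neither had an unadjusted p under 0.05. The lines used here held 650799 to 688942 RPM in PB, 827448 to 864611 RPM in prePB and 915695 to 960060 RPM in B cells and blasts, and the median log2 change over all genes was -0.77 in PB against B cells and -0.64 in PB against blasts. Arg1 was at most 0.606 RPM (3 reads) in the B lineage, and Arg2 was at 0 in 7 of 8 libraries.

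In the same step from B cells to blasts, 3 lists around the cycle were read beside Asl and Ass1, in a comparison where 34.1% of all genes were called. Of 11 nitrogen-supplying genes tested, 6 rose and 2 fell, led by asparagine synthetase, Asns (3.74), with Adssl1 (-1.92) and Got2 (1.50) next. Asns measured 7.88 and 9.39 RPM in B cells and 168 and 97.1 RPM in blasts. Of 10 transporters, 3 rose: the arginine and lysine carrier Slc7a3 (3.64), the mitochondrial aspartate and glutamate carrier Slc25a13 (2.90) and the arginine carrier Slc7a1 (1.34). Of 11 arginine-using and polyamine genes, 4 rose and 1 fell, led by Gatm (2.73), spermidine synthase, Srm (2.32), and spermine oxidase, Smox (2.11).

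Ordered by group mean, Ass1 ran from E16.5 intestine (166 ± 25.5 RPM, SD, n = 2) through P4 CD73+ retina (19.3 ± 4.84) and PGCLC (18.4 ± 1.95) down to P0 (3.47 ± 2.67) and P10 retina (1.44 ± 1.30). E16.5 intestine was separate from its neighbour in that order, from P4 CD73+ retina to B cells each neighbouring pair overlapped, and P3 intestine (7.51 ± 0.15) was separate from B cells above and P0 retina below. Asl ran from E16.5 intestine (69.7 ± 10.8) and P10 retina (43.0 ± 2.02), each separate from the next, to P4 GFP+CD73- retina (15.6 ± 1.57) and B cells (7.89 ± 1.15), also separate. The groups ranked between P14 intestine (30.0 ± 3.98) and P0 retina (21.9 ± 0.610) overlapped from neighbour to neighbour. Arg2 was highest in P14 intestine (13.7 ± 2.14) and next in P10 retina (5.53 ± 2.10), both separate from their neighbours. Arg1 was highest in PGCLC (51.3 ± 9.17), followed by P3 intestine (5.05 ± 0.473) and P0 retina (4.60 ± 1.39), which overlapped.

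Over the 13 group means of log2(RPM + 1), genes were ranked by Pearson r with each member among 14131 genes, as a description. The points share libraries, and for genes read in 1 tissue r mainly states that tissue. Nags was most like BC030870 and Esrp2 (r = 0.9998 each) and Sult1b1 (0.9993), Cps1 was most like 2210415F13Rik (0.9979), Tm4sf20 (0.9976) and Atp8b1 (0.9974), and Otc was most like Mgam (0.9984), an intestinal disaccharidase gene, Ttc22 (0.9982) and Xpnpep2 (0.9981). Among the members r was 0.9946 for Cps1 and Otc, 0.9906 for Cps1 and Nags and 0.9973 for Otc and Nags. It was 0.39 for Ass1 and Asl, the consecutive enzymes of arginine synthesis.

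Ass1 was most like Slc28a1 (0.83), Anxa8 (0.83) and Alpk3 (0.82). Asl was most like Uqcrb (0.89), Ndufb6 (0.87) and Atp5o (0.86), all subunits of the mitochondrial respiratory chain or ATP synthase. Arg1 was most like Shroom4 (0.97), Greb1l (0.95) and Nefm (0.92). Arg2 was most like Sh2d6 (0.89), 2310034G01Rik (0.81) and LOC100862126 (0.80).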

How the data were processed

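RNA (1 ng per library) was amplified and its 3′ ends sequenced, per the labels' protocols. Per the submitters' processing notes, the tools were Cufflinks 2.2.0, TopHat 1.4.1, Bowtie 1.0.1 and cutadapt 1.11 and the build mm10. The treatment of reads that fit several genes is not given in the sources here. The table deposited by the authors holds a signal per gene, in RPM by its header. Between 73.2 and 86.7% of low values per library were whole reads (within 0.02 of a read), so the signal was not treated as counts. Of 26310 lines, 1164 with unfilled or shifted values, none a member, were left out.

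Log2(RPM + 1) values were tested with limma 3.58.1 (trend) in R 4.3.3, within each lineage or, between lineages, over all 26 libraries. Genes needed 5 RPM in 2 libraries. P-values were adjusted (Benjamini-Hochberg) over all genes tested. The code was tested on simulated data. Figures and tables used Python 3.11.15, NumPy 2.4.6, pandas 2.3.3 and matplotlib 3.10.9.

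Members and lists were chosen with earlier results of these data known. Of each list, up to 6 called genes with the largest change were to be named, and the 3 genes most like each member. Other list genes (Oat, Aldh18a1 and Nos2, and calls of small counts) were named after their values were seen. Alternatives were other pseudocounts, filters, scalings, fits and fold rules, a replicate block and each library left out. Leaving out an intestinal group, and the P14 group with no filter, was added after seeing the data. Promoters came from RefSeq (GRCm38.p6). Some list genes are not reported here.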

Additional observations from a re-analysis of the deposited data

How the results depend on the processing

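The number of members called kept within 1.5 times of its value under every alternative run for intestine against retina (4), the B lineage (7) and PGCLC (5), single libraries left out included. Cps1, Otc, Nags and, through P14, Arg2 passed the filter by their high intestinal values, so that steadiness is a description. Against the B lineage, Arg1 and Arg2 were lost with log2(RPM + 5), Ass1 and Asl with quantile normalization, and Asl with median-of-ratios scaling. With no minimum fold the counts were 5 (in place of 3) for P3 and for P14 against E16.5, 2 for P14 against P3 and for P10 against P6 retina, 1 for P10 against P0, 4 for retina against the B lineage and against PGCLC, and 3 for the B lineage against PGCLC. With a filter of 20 RPM they were 0 for P14 against P3 and for P10 against P6, and with no filter 2 for P10 against P6 and 1 for P10 against P0 and for PB against prePB. A fit of all 26 libraries gave those same counts of 2, 1 and 1. Median-of-ratios scaling and quantile normalization each gave 1 for P10 against P0, and median-of-ratios 2 for retina against the B lineage. Log2(RPM + 5) gave 0 for Blast and PB against B cells and for retina against the B lineage, and 1 for retina against PGCLC. Log2(RPM + 0.25) gave 2, 4 and 2 for retina against the B lineage, retina against PGCLC and the B lineage against PGCLC. The libraries of retina and B lineage alone gave 0 for retina against the B lineage, as Arg1 was then not tested.

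With single libraries left out the counts ran from 2 to 3 for P3 and P14 against E16.5, from 0 to 1 for P14 against P3, P4 GFP+CD73- against P0, P10 against P0, Blast against B cells and PB against B cells, and from 1 to 2 for retina against the B lineage. Same-numbered libraries deviated together with r between -0.05 and 0.04 in intestine, -0.03 and 0.28 in retina and 0.01 and 0.20 in the B lineage, so the numbers were not taken to pair samples. The replicate block gave 1 call (Ass1) in place of 0 for P4 GFP+CD73- against P0 and moved no other count by over 1.5 times.

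Log2 differences that changed sign were small, rested on 1 group or depended on the scaling. With single libraries left out, Ass1 ran from -0.74 to 0.0222 for P6 against P4 CD73+ (highest without P6 replicate 1), from -0.31 to 0.14 for prePB against Blast (highest without Blast replicate 2) and from -0.28 to 0.29 for PB against B cells (-0.28 and -0.07 without PB or B cell replicate 1). In PB against B cells median-of-ratios and quantile scaling gave Ass1 0.72 and 0.95, neither called, in place of 0.01, and Asl 1.87 and 2.07, both called, in place of 1.13. Median-of-ratios and quantile scaling gave Ass1 0.11 and 0.13 for prePB against Blast, 0.0454 and 0.0143 for PB against prePB, and 0.16 and 0.15 for PB against Blast. Without the E16.5 group Ass1 stood at -0.11 for intestine against the B lineage and -0.99 against PGCLC. Asl ran from -0.0362 (without P3 replicate 1) to 0.32 for P14 against P3. For PB against Blast it ran from -0.15 to 0.36 (-0.15 and -0.04 without Blast replicate 2 or PB replicate 1). For retina against the B lineage Asl stood at 0.55 on the deposited scale (limma adjusted p = 9.9e-05). There it was -0.18 and -0.46 with median-of-ratios and quantile scaling (limma adjusted p = 0.14 and 6.1e-04), so its direction depends on the scaling. Cps1 at P14 against E16.5 was -0.0425 with quantile normalization and ran from -0.13 (without P14 replicate 1) to 0.43. Arg1 in intestine against retina ran from -0.13 (without P4 GFP+CD73- replicate 2) to 0.24 with libraries left out, with -0.11 without P6 replicate 1, and was -0.43 without the P3 group. Without the P14 group and with no filter Arg2 stood at -0.45 for intestine against retina, 0.49 against the B lineage and 0.30 against PGCLC, called in none. The cause was not tested. Depth limits Cps1, Otc, Nags, Arg1 and Arg2 outside their high groups, where values rest on a few reads.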
